A study of Botryllus schlosseri with 78 samples.

Results

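FF11, FF33, FF40 and FF42 are 4 of the 45 transcripts with FF names in a table of 137 transcripts of the colonial tunicate Botryllus schlosseri. FF is read here as the family of fester, an allorecognition receptor. The 4 were chosen by their measured values, because few colonies carry them and because SKI whole bodies and replicates 2 and 3 of SB825-FX ampullae stand out. Their levels are therefore described, and no test of them is read. The other rows are 41 FF transcripts, 69 FcoR transcripts, which per the series record came from searches seeded with fester, and 23 transcripts of signalling proteins and of the Fuhc locus.

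The values cover 77 libraries. Whole bodies came from the genotypes SB825, SKI, SMGO and SMH with 3 replicates each. For ampullae there are 3 replicates of SMH, 4 libraries of SMGO of which 2 are named technical, and 3 replicates per SB825 line: SB825-FDA, SB825-FEA and SB825-FX. Male colonies of M001, MADM and MDR were taken at 7 stages of the budding cycle, 21 libraries in all. Sorted cells comprised 8 libraries positive and 4 negative for integrin alpha-6 (IA6; individuals 79C, 79G, 81A and 81C). They also comprised a positive and a negative library of aldehyde dehydrogenase (ALDH) for individuals 1, 2B, 6 and 7, and 5 libraries of vascular cells sorted by BSA. Blood gave 3 libraries, from FL3, FLLC2 and LFC4. No treatment, allele or age is stated for any group, and the labels call 2B and 6 winners and 1 and 7 losers without a definition. They do not say whether replicates are separate colonies or pieces of 1 colony.

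In this animal, neighbouring colonies meet at their ampullae, the finger-like tips of the blood vessels that run through the tunic. Whether they fuse or reject depends on alleles of the Fuhc locus, and fester and its relatives are known as highly variable receptors of that response, expressed in the ampullae and in blood cells. Signals of such receptors are thought to pass through kinases and adaptors of the kind that serve immune receptors in vertebrates. The table holds no markers of cell types, so the labelled tissues and sorts could not be checked. No sequence of the 4 transcripts is shown, because their names match no entry of the gene table used here.

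Each value is the deposited TMM-scaled expression of 1 transcript in 1 library, read as TPM scaled by a factor per library. It is per length and close to a share of the 137 transcripts, whose values sum to between 308919 and 1466577 in a library. The depth of a library is unknown, since the labels state only a common target. As a rough guide, the lowest value of at least 1 ranged over BSA libraries from 84.1 to 2337, over ampullae from 28.1 to 86.9 and over whole bodies from 4.91 to 58.5. BSA SB07-09 and SB10-11 stand apart, with 0 and 2 FF transcripts detected, so a 0 of a member says little there. In SB825-FX, replicates 2 and 3 stand apart from replicate 1, and every SB825-FX value below is given by library. Whole-body SMH replicate 3, which unlike the other 2 has no replicate number in its library name, had 21 FF and 46 FcoR transcripts detected against 13 and 15 FF and 36 and 39 FcoR; all 4 members were at 0 in each of these libraries. In bulk samples, fewer cells of a type and less RNA per cell cannot be told apart.

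The values of the 4 transcripts were mostly 0, and those above 0 fell into separate low and high ranges. Of their 308 values, 276 were 0, 10 lay between 111 and 590.3, and 22 lay between 1672 and 47106, with none between these ranges. The 22 high values fell in 12 libraries: the 3 SKI whole bodies, BSA SB04, SB05 and SB06, SB825-FX ampullae 2 and 3, and both ALDH fractions of individuals 6 and 7. In 59 of the 77 libraries all 4 were at 0. These include all blood and IA6 libraries, SMH ampullae, the SB825, SMGO and SMH whole bodies, and every male library except MADM at stage A1.

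**Figure D1:**
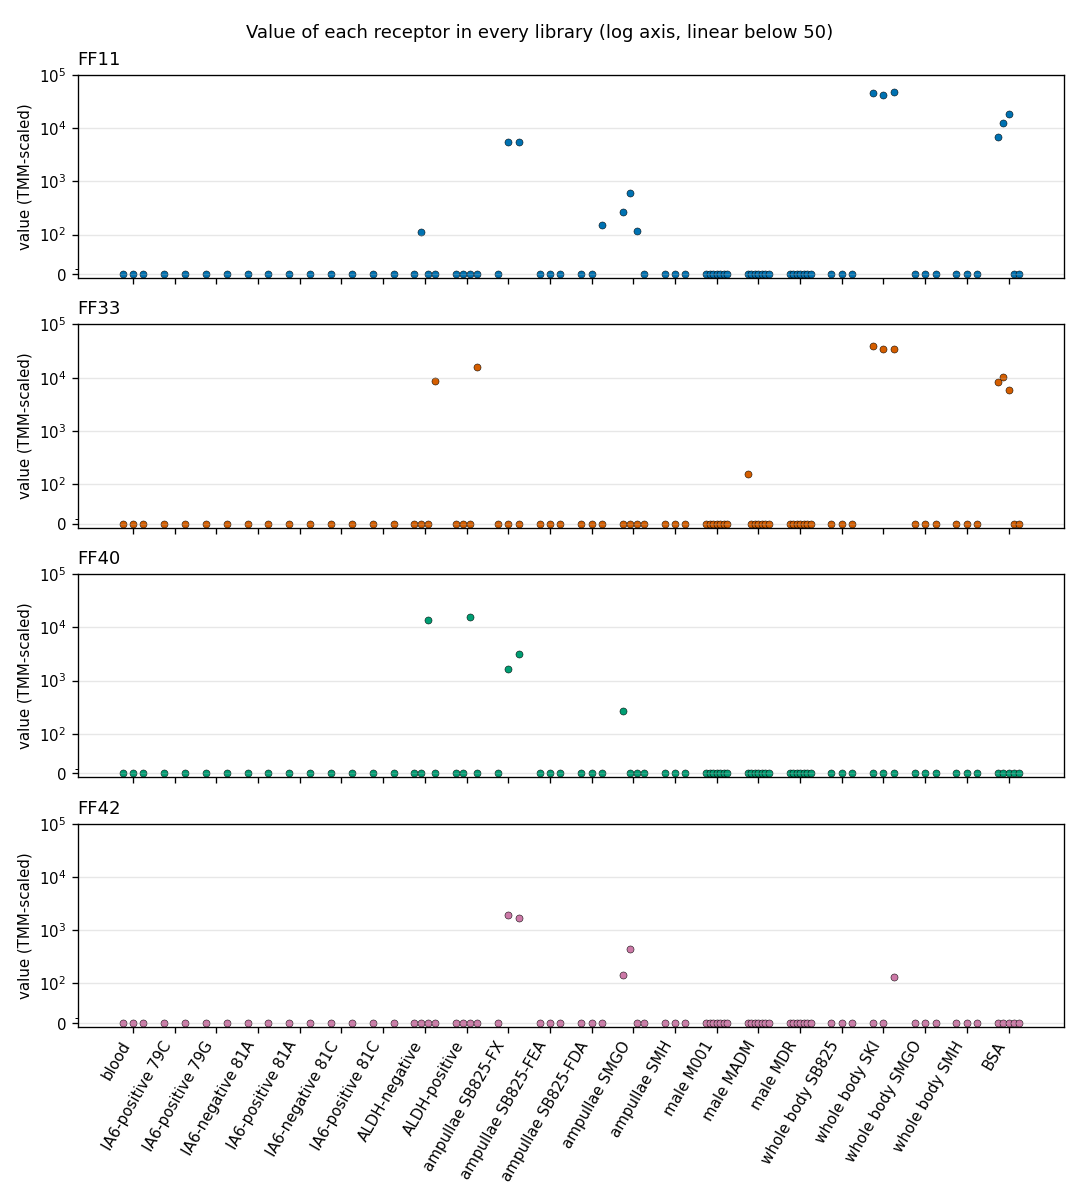
Value of FF11, FF33, FF40 and FF42 (one panel each) in each of the 77 libraries, by group; the vertical axis is logarithmic above 50 and linear below, and each point is 1 library. High points stand in SKI whole bodies, BSA, SB825-FX ampullae and ALDH cells; the points of SMGO ampullae stay at or below 590.3.

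Whether these transcripts are rare depends on the member. The libraries form 34 combinations of sample class and colony, and a combination is said to hold a transcript that reaches 1 in over 50% of its libraries. FF42 was held by 1, FF40 by 3, FF33 by 6 and FF11 by 7, while the median FF transcript was held by 7 and the median FcoR transcript by 16. FF11 and FF33 thus stood at or next to the median of their family, and 22 FF transcripts were held by fewer combinations than FF11. Just outside, FF28 was held by 8; FF34 and FF45, which are not among the 4, were held by 6, as FF33 was. At a value of at least 200, FF11 was held by 5 combinations and the other 3 kept their counts. FF11 lost ALDH-negative 2B and SMGO ampullae there, where it never exceeded 590.3. Positive and negative cells of 1 individual count as separate combinations. Without negative fractions and the 2 sparse BSA libraries, 26 combinations remained. Of these FF42 was held by 1, FF40 by 2, FF33 by 5 and FF11 by 6, against a median of 6 for FF transcripts.

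FF11 was the most abundant of the 4, and in SKI the most abundant FF transcript of all. In the 3 SKI whole bodies it stood at 44569, 42343 and 47106, a mean of 44673 ± 2383 (SD, n = 3), and ranked first among the FF transcripts in each. The other 9 whole-body libraries were at 0, a pattern for which FF11 was chosen. Detection in all 3 SKI whole bodies with 0 in the other 9 was found for 2 of the 4 members and 7 of 69 FcoR transcripts. It was found for 0 of 41 other FF and 0 of 23 signalling and Fuhc transcripts. The rule of exact 0 is strict, and other FF transcripts came near it. FF5 stood at 271 to 477 in SKI and at no more than 9.45 in the other whole bodies. FF31 stood at 3036 to 3703 in SKI and at no more than 44.8 in the others. FF4 averaged 24919 in SKI, 0 in SB825 and SMGO, and 2389 in SMH. FF11 stood at 6788, 12671 and 18327 in BSA SB04, SB05 and SB06, and at 5485 and 5377 in SB825-FX ampullae replicates 2 and 3. The BSA libraries were spread widely, whereas the SB825-FX pair was almost level. The SKI mean was 3.55 times the mean of these 3 BSA libraries and 8.23 times that of the SB825-FX pair; these are different tissues and colonies, and the labels pair none of them.

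FF33 was present where FF11 was high, except in SB825-FX, and also in an ALDH individual that lacked FF11. In SKI whole bodies it stood at 39381, 35109 and 35268, a mean of 36586 ± 2422 (SD, n = 3), against 0 in the other 9. In BSA SB04, SB05 and SB06 it stood at 8415, 10172 and 5843. ALDH-negative and ALDH-positive cells of individual 7 stood at 8576 and 16079, and the other 6 ALDH libraries were at 0. Both fractions of the individual thus carried it. The positive fraction was 1.87 times the negative one, while the FF total also differed, 167120 against 120940; FF33 made up 9.62% and 7.09% of it. With 1 library of each fraction that difference has no replicate check.

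Levels of FF11 and FF33 were close in SKI, and less so in BSA cells. FF11 was higher in each of the 3 SKI libraries, by 1.13, 1.21 and 1.34 times. The mean difference was 0.29 ± 0.12 on the log2(value + 1) scale (SD, n = 3) and is given with no test, because 3 pairs are too few for one to pass. In BSA cells the ratio of FF11 to FF33 was 0.807 in SB04, 1.25 in SB05 and 3.14 in SB06, so its direction was not shared by the 3 libraries.

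FF40 was an SB825-FX and ALDH transcript. In ALDH-negative and ALDH-positive cells of individual 6 it stood at 13822 and 15873, and the other 6 ALDH libraries were at 0. As with FF33 in individual 7, both fractions of the individual carried it, with a ratio of 1.15 between positive and negative. It made up 12.3% of the FF total in the positive cells and 9.36% in the negative ones. In SB825-FX ampullae, replicates 2 and 3 stood at 1672 and 3150 and replicate 1 at 0. The only other value was 263 in a technical library of SMGO ampullae.

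FF42 reached more than 1000 in 2 libraries. These were SB825-FX ampullae 2 and 3, at 1914 and 1724, with replicate 1 at 0. Traces followed in both technical SMGO ampullae libraries, at 143 and 452, and in SKI whole-body replicate 3, at 131. The lowest value of at least 1 in that SKI library was 58.5, and the other SKI libraries were at 0. By its highest value over all libraries, FF42 ranked 41 of 45 FF transcripts, FF40 28, FF33 6 and FF11 4.

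The 10 low values lay mostly in SMGO ampullae, which had 6 of them. FF11 stood there at 260, 590 and 117 in the technical libraries 1 and 2 and replicate 2, and at 0 in replicate 3. The 3 members with low values there, FF11, FF40 and FF42, are the 3 that SB825-FX replicates 2 and 3 carried. As a share of the mean of that pair, FF11 reached 4.79%, 10.9% and 2.15%, and FF42 7.89% and 24.9%. FF19, at 4868 in the pair on average, was at 0 in all 4 SMGO ampullae libraries, while FF5 reached 1.33% and 0.895% of the pair in 2 of them and FcoR40 between 2.42% and 22.4% in all 4. The 3 SMGO whole bodies were at 0 for all 4 members. What these low values come from was not tested. Outside SMGO, the lone low values were FF11 at 151 in SB825-FDA replicate 3 and 111 in ALDH-negative 2B, FF33 at 152 in male MADM at stage A1, and the FF42 value of 131 in SKI replicate 3.

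In the libraries that carried them, the 4 transcripts took unequal parts of the FF total, the sum of all 45 FF values. FF11 and FF33 together made up nearly all of the members' 42.8%, 38.1% and 39.3% in SKI. In BSA SB04, SB05 and SB06 the share was 11.7%, 19.5% and 17.7%. It was 7.90% and 8.70% in SB825-FX replicates 2 and 3.

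**Figure D2:**
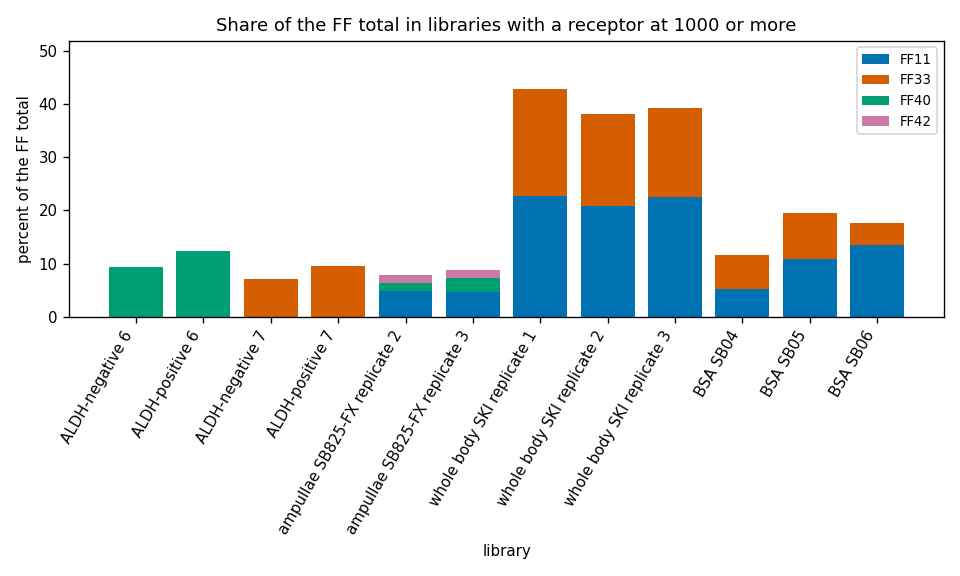
Percent of the FF total taken by FF11, FF33, FF40 and FF42, stacked, in the 12 libraries in which at least 1 of them reached 1000. SKI whole bodies stand highest, between 38.1% and 42.8%; the ALDH, SB825-FX and BSA libraries lie between 7.09% and 19.5%.

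With this share, the FF total of SKI was the highest on average, and its libraries lay within the range of SMGO. It was 202995 ± 6896 in SKI, 187779 ± 19658 in SMGO, 174136 ± 14645 in SB825 and 150907 ± 14407 in SMH (SD, n = 3 each). SMH replicate 3 stood at 145390, between the other 2 SMH libraries. Without the 4 members it was 121693 ± 8410 in SKI and the same as before in the other genotypes, which listed all 4 at 0. Taking them out removes abundant transcripts of SKI alone, so the order that results is set by the choice of members. SB825 had a like case: FF22, FF23 and FF24, each at 0 in the other genotypes, made up 42.6% ± 4.17 of its FF total. SMGO and SMH had no FF transcript of their own. Relative to the signalling and Fuhc transcripts, the log2 ratio of the FF total was -2.16 ± 0.13 in SKI, -2.02 ± 0.09 in SMGO, -2.37 ± 0.22 in SB825 and -2.50 ± 0.14 in SMH. The range of the 3 SKI libraries, -2.28 to -2.03, overlapped those of SMGO and SB825 but not that of SMH, which ended at -2.34.

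**Figure D3:**
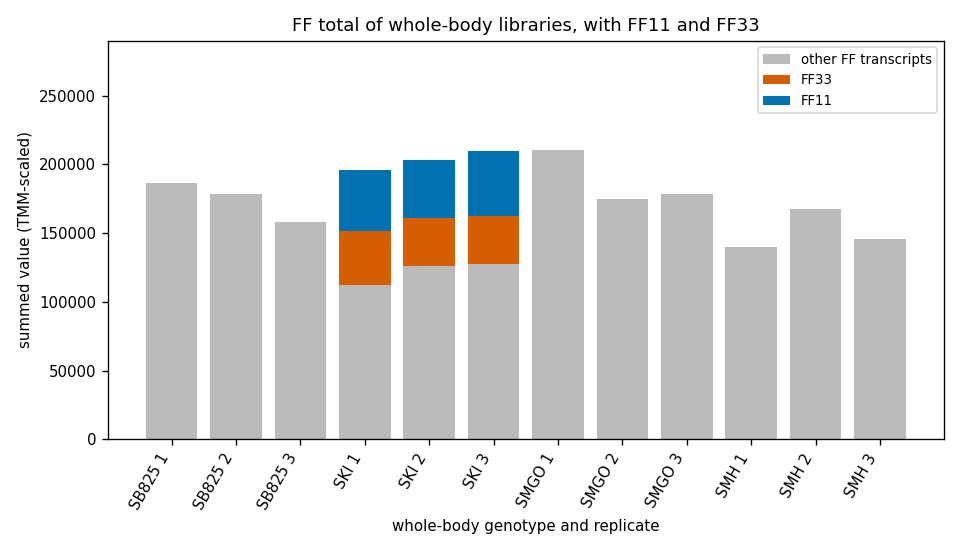
FF total of each whole-body library as a stacked bar from 0: FF11 and FF33 in colour, the other FF transcripts in grey. Only the 3 SKI bars hold the coloured parts. Their totals, 195967 to 209750, lie within the range of the SMGO bars, 174535 to 210367, and above all SB825 and SMH bars.

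The 2 SB825-FX libraries that carried FF11, FF40 and FF42 lacked FF14 and FF35, which stood at 0 in both. Replicate 1 had 11510 and 16513, and all 6 libraries of SB825-FEA and SB825-FDA carried both, FF14 between 3989 and 14492 and FF35 between 17516 and 26017. FcoR40 stood at 7482 and 9576 in replicates 2 and 3, at 115 in replicate 1 and at 0 to 84.4 in the other SB825 lines. FcoR38 went the other way, at 160 and 68.1 in replicates 2 and 3, 13184 in replicate 1 and 11378 to 19703 in the other lines. FF5, which all 9 libraries shared, stood at 12318, 15562 and 13190 in replicates 1, 2 and 3 of SB825-FX.

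Among the SB825-FX replicates, 9 FF and FcoR transcripts reached 1 in replicates 2 and 3 only, and 7 in replicate 1 only. The 9 were the 3 members and 6 FcoR transcripts, of which FcoR21 alone was also at 0 in all SB825-FEA and SB825-FDA libraries. The summed value of FF14 and FF35 in replicate 1 was 28022, and that of FF11, FF40 and FF42 in replicates 2 and 3 was 9070 and 10251. The sets of detected FF and FcoR transcripts overlapped by a Jaccard index (shared over all) of 0.860 between replicates 2 and 3 and of 0.661 and 0.683 between replicate 1 and each of them. Why 1 library of the line differs was not tested, and no test was made between libraries set apart by these same values.

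**Figure D4:**
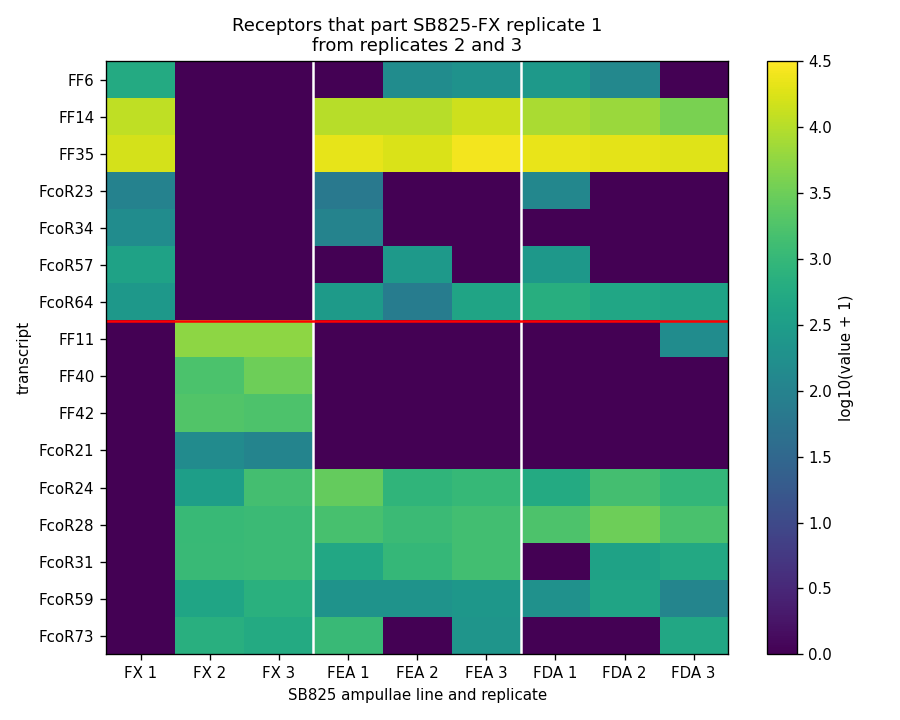
Values of the 16 FF and FcoR transcripts detected only in replicate 1 (above the red line) or only in replicates 2 and 3 (below it) of SB825-FX ampullae, on a log10(value + 1) colour scale, beside the replicates of SB825-FEA and SB825-FDA. FF11, FF40 and FF42 are bright in FX 2 and FX 3; FF14 and FF35 are dark there and bright in the other 7 libraries.

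Each member had a transcript with a like pattern over the 34 combinations. Likeness is Pearson's r of the mean log2(value + 1), given as a description, since many combinations share colonies and most values are 0. FF11 was most like FcoR66 (r = 0.930), then FF33 (0.685) and FcoR43 (0.679). FF33 was most like FcoR43 (0.911), then FcoR66 (0.751) and FcoR56 (0.687). For FF40 these were FcoR40 (0.791), FF18 (0.561) and FF34 (0.544). For FF42 they were FF26 (0.838), FcoR40 (0.505) and FcoR39 (0.438). Such likeness was common in the table: the best r of the other 129 transcripts that vary had a median of 0.770, and 29 of them had one at least as high as that of FF11.

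FcoR43 and FF33 were high in the same libraries. Both reached 1000 in the same 8 libraries, which are SKI, BSA SB04 to SB06 and individual 7. FcoR43 stood at 11843, 9612 and 10002 in SKI and at 12569, 8310 and 6497 in BSA SB04, SB05 and SB06. It stood at 6662 in the negative and 9256 in the positive cells of individual 7. In 6 further libraries FcoR43 was present at 13.2 to 233 with FF33 at 0. FF33 was 3.33 to 3.65 times FcoR43 in SKI, but only 0.669 to 1.22 times in BSA cells, so their levels did not keep 1 ratio.

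FcoR66 accompanied FF11 in SKI and BSA cells but not in SB825-FX. It stood at 13947, 12172 and 11314 in SKI and at 4352, 9207 and 7604 in BSA SB04, SB05 and SB06. It was at 0 in all SB825-FX libraries and at 98.2 in ALDH-negative 2B, where FF11 stood at 111. At 1000 or more, FcoR66 and FF11 shared 6 libraries, 100% of those of FcoR66 and 75.0% of the 8 of FF11.

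FF40 and FcoR40 shared 4 libraries at 1000 or more, 100% of those of FF40 and 80.0% of those of FcoR40. Their balance differed between the sources: FF40 was 3.44 and 10.5 times FcoR40 in the negative and positive cells of individual 6, and 0.223 and 0.329 times in SB825-FX replicates 2 and 3. The likeness of FF42 and FF26 rests on SB825-FX replicate 2, the only library with FF26 at 1 or more, at 307.

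**Figure D5:**
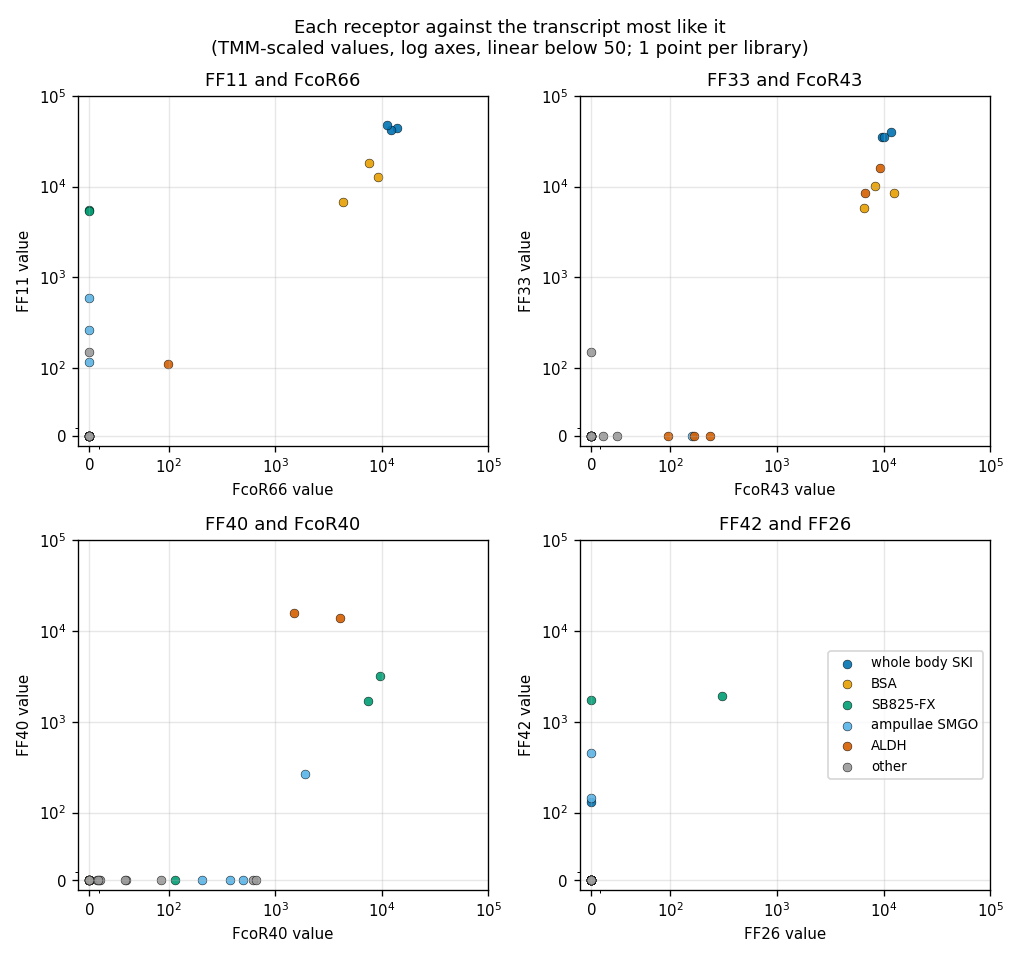
Each of FF11, FF33, FF40 and FF42 (vertical) against the transcript with the highest r (horizontal), 1 point per library coloured by source; both axes are logarithmic above 50 and linear below. FF33 and FcoR43 rise together in 8 libraries, FcoR66 is at 0 in SB825-FX while FF11 stands there at 5377 and 5485, and FF26 exceeds 1 in a single library.

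Among themselves, the 4 formed no common set. FF33 was found with FF11 in 6 libraries, and with FF40 in none. FF11, FF40 and FF42 shared 3 libraries, the SB825-FX pair and a technical library of SMGO ampullae. No library held all 4.

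Besides FF11 and FF33, 7 FcoR transcripts were detected in all SKI whole bodies and at 0 in the other 9. FcoR66 and FcoR56 were the highest, at 12478 ± 1343 and 3931 ± 277 (SD, n = 3), followed by FcoR67 at 796 ± 124. FcoR11, FcoR33, FcoR39 and FcoR13 averaged 289, 279, 120 and 38.2. BSA SB04, SB05 and SB06, which carried FF11 and FF33, had 7, 6 and 7 of these FcoR transcripts. The ampullae had 0 to 3, male colonies 0 to 3, IA6 libraries 1 to 4 and ALDH libraries 0 to 6, the last in the positive cells of individual 7. These counts take any value of at least 1 and say nothing of level. Outside the whole bodies, all of them but FcoR66 exceeded their SKI mean in some library. FcoR39 stood at 13698 in SB825-FX ampullae replicate 1, and FcoR33 at 5412 in male MDR at stage A1. The detected FF and FcoR sets of SKI and of BSA SB04, SB05 and SB06 overlapped by a Jaccard index of 0.574 to 0.716. The index was not computed for SKI with other libraries, so this range shows no particular likeness. SB825-FX replicate 1, which stood apart, overlapped replicates 2 and 3 by 0.661 and 0.683. The labels do not say how the BSA animals are related to SKI.

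Many other receptors and signalling genes also differed between SKI and the mean of the other 3 genotypes. No other genotype was tested in this way, so such differences are not shown to be particular to SKI. In limma, 73 of 110 transcripts tested (66.4%) passed a Benjamini-Hochberg adjusted p of 0.05, 43 (39.1%) higher and 30 (27.3%) lower in SKI. These counts include FF11 and FF33, both higher, from which no test is read because they were chosen for their SKI values. Of the other FF transcripts 20 of 23 (87.0%) passed, 9 higher and 11 lower, with a median log2 difference of -2.12 against 0.22 over all transcripts. With no filter on low values, that median was -0.94 over 28 other FF transcripts. The 11 called lower include FF22, FF23 and FF24, which were at 0 in SKI, SMGO and SMH and reached the filter through SB825 alone. Of the FcoR transcripts 40 of 62 (64.5%) passed, 23 higher and 17 lower. The FcoR transcripts called higher include the 7 at 0 in the other genotypes, which reached the filter through SKI alone. Of the signalling and Fuhc transcripts 11 of 23 (47.8%) passed, 9 higher and 2 lower. FF40 and FF42 did not pass the filter on low values. Without any 1 SKI library, 13 or 14 FcoR transcripts passed as higher, and without any 1 SB825 library 6 other FF transcripts passed as lower. Fewer transcripts, 101 and 102, could then be tested. The median of the other FF transcripts was then above 0 without any 1 SB825 library, at 0.34 to 0.42. Without SMH replicate 3, 75 transcripts passed, 43 higher and 32 lower.

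FF14, the third or second FF transcript of SKI, averaged 32423 ± 4992 there and passed as higher (log2 difference 5.41 ± 0.10 SE, limma adjusted p = 1.58e-11). It averaged 16523 in SB825, 26299 in SMGO and 0 in SMH. The ranges overlapped, since the lowest SKI library stood at 26885 and the highest other library at 28541. Most of the log2 difference comes from SMH, which was at 0. FF1 and FF5 came next by adjusted p and passed as higher (limma adjusted p = 5.56e-07 and 1.38e-06), although FF1 averaged 3410 in SKI and 7094 in SB825, since SMGO and SMH averaged 119 and 65.0. FF24, FF10 and FF23 passed as lower, and all were at 0 in SKI. FF10 was high in SMGO and SMH and at 0 in SB825 (limma adjusted p = 2.11e-11). FF24 and FF23 were high in SB825 and at 0 in SMGO and SMH, as in SKI. They reached the filter through SB825 alone, so their rank is a description. By smallest adjusted p, the first FcoR transcripts that were higher were FcoR33, FcoR56 and FcoR39. These were at 0 in the other genotypes and reached the filter through SKI alone, so their rank is a description. Among those that were lower, the first were FcoR5, FcoR6 and FcoR71_2, at 0 in SKI. FcoR6 and FcoR71_2 were at 0 in SMGO and SMH too, and averaged 11891 and 3611 in SB825. These 2 reached the filter through SB825 alone, so their rank is a description as well. By log2 difference, FcoR66, FcoR12 and FcoR43 were the highest. FcoR5 averaged 20383 in SB825.

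Differences in signalling transcripts were small beside those of receptors. PAK1, a kinase that acts below the small GTPases Rac and Cdc42, stood at 22788 ± 966 in SKI and at 13074 to 16063 on average in the others (log2 difference 0.68 ± 0.09 SE, limma adjusted p = 0.000122). VAV, an exchange factor for Rac, and PKC, a lipid-activated kinase, were higher by 0.36 and 0.70 (limma adjusted p = 0.000586 and 0.000680). The transcription factor NF-kB fell by 0.20 and FuHc-Sec, the secreted product of the Fuhc locus, by 0.73 (limma adjusted p = 0.00291 and 0.0213). FuHc-Sec did not pass without SKI replicate 1 (limma adjusted p = 0.115). With values divided by the signalling and Fuhc total, the median of all transcripts moved from 0.22 to 0.10, and 7 signalling and Fuhc transcripts passed, 5 higher and 2 lower. SKI is 1 genotype, so these tests compare its 3 libraries with 9 others, and not a carrier group with a group without FF11 and FF33.

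In the stages of male colonies and in the ALDH and IA6 fractions, no member reached the filter of a fit across transcripts. FF33 was above 0 in 1 of 21 male libraries and 2 of 8 ALDH libraries, and FF40 in 2 of 8 ALDH libraries. No change of a member with stage or fraction was therefore tested.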

How the data were processed

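The authors deposited 1 table of signal values, TMM-scaled expression with 1 column per library; its name states TMM and not TPM, so the reading as scaled TPM is inferred. Trim Galore, kallisto and RSEM were used per the submitters' processing notes, with no version or order given. How reads shared by similar family members were divided is not stated in the labels, so levels of close relatives are uncertain. Of 158 columns, 77 match a library of the labels by name and 81 were not used; a further BSA library of the labels, SB01-03, was not analysed. Genes are named as in the table, and none of the 4 names is in the RefSeq gene table.

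The members and lists were chosen with earlier results of these data known. Values were analysed as log2(value + 1). Limma 3.58.1 (R 4.3.3) tested SKI against the mean of the other genotypes in a fit of the 12 whole-body libraries, with a variance trend and Benjamini-Hochberg adjustment over all 110 transcripts with a value of at least 1 in 3 libraries; the script was tested on simulated data. Named beside the members are the 3 most alike transcripts each, and per list and direction the 3 with the smallest adjusted p; others, among them FF19, FF22, FF28, FF35, FF45, FcoR11, FcoR12, FcoR13, FcoR21, FcoR38 and FcoR67, were picked after their values were seen. A planned exact permutation test of the FF remainder against the signalling transcripts is not read as a test, because taking out the members lowers SKI alone, and neither is one of FF11 against FF33, which 3 pairs could not pass. Python 3.11.15 with numpy 2.4.6, pandas 2.3.3 and matplotlib 3.10.9 was used. Replicates may be technical, so a p-value covers only the spread among the libraries given.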

Additional observations from a re-analysis of the deposited data

Results flagged for a closer look

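Groups of 4 to 10 libraries were searched, apart from SMGO ampullae, which include technical libraries. In them, 6 sets of member values had 1 library above 0 and the rest at 0. Each set thus had 1 value far from the others by Dixon's criterion. Such a set meets the criterion by construction, and the members were chosen because few colonies carry them. The usual chance rate of about 1 in 20 sets is therefore no yardstick here, and the 6 values are a description. Among ALDH-negative libraries these were FF11 in individual 2B (111), FF33 in individual 7 (8576) and FF40 in individual 6 (13822). Among ALDH-positive libraries they were FF33 in individual 7 (16079) and FF40 in individual 6 (15873). Among the 7 stages of male MADM, FF33 stood at 152 at stage A1, where the lowest value of at least 1 was 10.3. FF33 and FF40 were far from the other individuals in both fractions, which are separate libraries, while FF11 in individual 2B was at 0 in the positive fraction.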

How the results depend on the processing

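Over both directions together, the counts of transcripts that differ in SKI stayed within 1.5 times, except that 7 signalling and Fuhc transcripts passed with values divided by the total of that list. Leaving out 1 replicate gave 56 to 75 calls in all, 14 to 20 for the other FF, 29 to 43 for FcoR and 9 to 12 for signalling and Fuhc transcripts. By direction they moved further: FcoR higher went from 23 to 13 or 14 without 1 SKI library, and other FF lower from 11 to 6 without 1 SB825 library. Replicate numbers did not pair the libraries (same-numbered libraries correlated between -0.29 and 0.16, over 0.1 in 4 of 18 pairs, and 3 of 12 libraries correlated best with their own number). With a replicate block, 71 transcripts passed. Of 268 values of the 17 named transcripts under other settings, 267 kept their direction and call. FcoR33, FcoR39 and FcoR56 had 14 values each, since they fell below the filter without any 1 SKI library. FF23, FF24, FcoR6 and FcoR71_2 also had 14, since they fell below it without any 1 SB825 library. The other named transcripts had 17. For these transcripts, leaving out a library of the only genotype that carried them thus gave no result. The log2 ratio of the FF remainder to the signalling transcripts differed in SKI from the others by -0.61 with sums (-0.65 to -0.56 without 1 replicate), -0.84 with means of log2 values and -1.40 with FcoR transcripts as the reference. The choice of members has a part in all of these, and no test is read from them. FF11 exceeded FF33 in SKI by 0.22 to 0.34 without 1 replicate. FF42 was held by 3 combinations when any library counted and by 0 when every library had to carry it. With Spearman's rho the closest transcripts were the same, at 0.818 for FF11, 0.705 for FF33, 0.661 for FF40 and 0.595 for FF42. A level of 1000 and a set of 26 combinations, without negative fractions and sparse BSA libraries, were chosen after seeing the data. Alternatives for stages and fractions gave no value, since no member passed the filter. With unknown depth, a 0 is no proof of absence.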
